A study of Mus musculus with 13 samples.

Results

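The 10 amino acid transporters described here are genes of the Slc1, Slc3, Slc7 and Slc38 families, chosen by name: *Slc7a1*, *Slc7a2*, *Slc3a2*, *Slc7a5*, *Slc7a7*, *Slc7a11*, *Slc1a4*, *Slc1a5*, *Slc38a2* and *Slc38a4*. All 10 were found, by their Ensembl identifiers, among the 53465 genes of the liver count table, and 9 of them had enough counts to be tested. *Slc7a11* did not. The livers of single male mice were analysed by RNA sequencing, those of 6 WT mice and of 7 *Nod2*-/- mice, which lack the cytosolic receptor for bacterial muramyl dipeptide in every cell. Both groups were on the inbred BALB/c background, and both had received the carcinogen DMBA once on the skin as pups. Both were then kept on a high-fat diet (HFD), for 30 weeks by the labels, which also give that age and describe the livers as cancerous. All 13 mice had this regimen, so the comparison is of the genotypes under it. The paper reports that more *Nod2*-/- than WT males developed liver tumors under this regimen. Genotype and tumor burden therefore cannot be told apart here. The paper also reports that *Nod2*-/- males gained more weight than WT males on this diet. It states that littermates were not used, and that a role of the microbiota was deliberately kept. Body weight, breeding line and microbiota cannot be told apart from genotype either.

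Amino acid transporters of the plasma membrane bring amino acids into hepatocytes, where they feed protein synthesis, the urea cycle, gluconeogenesis and glutathione. Some work alone, such as the cationic transporters and the sodium-coupled neutral ones, and others are light chains that reach the cell surface only when bound to the heavy chain CD98 (4F2hc), coded by *Slc3a2*. Several of their genes are known targets of the amino acid response, in which the kinase GCN2 and the factor ATF4 raise transcription when amino acids are scarce, and several are known to be abundant in tumor cells.

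A known form of the ATF4 binding site joins C/EBP letters to ATF letters and can be written TGATGNAA. These letters were sought on both strands of the RefSeq promoter windows of build GRCm38.p6, which run from 250 bases before to 50 bases after a start site. Windows were given for 7 of the 10 genes, 14 windows in all, and *Slc7a2*, *Slc7a5* and *Slc1a5* had no entry. The letters stood in 4 windows of 3 genes, *Slc1a4*, *Slc7a7* and *Slc7a11*, and in 3.97% of all 32851 windows of the table. In *Slc1a4* (chr11:20332664-20332963, minus strand) the match is on the opposite strand and begins 4 bases before the start site. In *Slc7a7* (chr14:54417895-54418194, minus strand) there are 2 matches, 141 and 1 bases before it, and in *Slc7a11* (chr3:50443564-50443863, minus strand) 2 matches, 66 bases and, on the opposite strand, 47 bases before it. These windows are shown, 1 for each of the 3 genes, because they hold the letters, which are in capitals, and they read 5′ to 3′ along the gene.
Slc1a4: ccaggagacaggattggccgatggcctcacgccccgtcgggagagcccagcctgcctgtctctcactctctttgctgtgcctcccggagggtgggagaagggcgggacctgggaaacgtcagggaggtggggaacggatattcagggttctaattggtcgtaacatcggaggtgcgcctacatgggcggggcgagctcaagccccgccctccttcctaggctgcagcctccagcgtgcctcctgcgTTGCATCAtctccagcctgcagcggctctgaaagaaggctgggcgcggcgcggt
Slc7a7: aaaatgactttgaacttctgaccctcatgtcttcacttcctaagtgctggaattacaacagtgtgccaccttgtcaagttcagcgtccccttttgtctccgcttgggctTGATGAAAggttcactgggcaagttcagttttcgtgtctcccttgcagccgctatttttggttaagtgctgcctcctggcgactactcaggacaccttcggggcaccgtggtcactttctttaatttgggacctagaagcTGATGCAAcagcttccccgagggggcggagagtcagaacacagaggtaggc
Slc7a11: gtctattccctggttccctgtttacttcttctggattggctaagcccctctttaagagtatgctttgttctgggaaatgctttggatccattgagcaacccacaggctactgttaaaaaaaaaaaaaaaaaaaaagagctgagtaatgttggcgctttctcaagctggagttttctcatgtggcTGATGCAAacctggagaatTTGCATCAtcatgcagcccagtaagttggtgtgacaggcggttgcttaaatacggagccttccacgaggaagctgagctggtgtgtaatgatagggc
The fourth window is a second start site of *Slc7a7* (chr14:54417653-54417952, minus strand), which overlaps the first and holds the second of its matches. The letters of the antioxidant response element, TGACNNNGC, known as a site of NRF2, stood in 1 window each of *Slc7a1* and *Slc38a2*, and in 12.4% of all windows. A match of letters is a description and not a measured site.

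The libraries held 14886273 to 20579984 gene counts in the WT group and 13824780 to 19391431 in the *Nod2*-/- group. *Nod2* itself had 2.09 ± 1.41 normalized counts in WT mice and 2.96 ± 1.92 in *Nod2*-/- mice (SD, two-sided exact permutation test, n = 6 and 7, p = 0.385), too few to check the genotype labels. Summed hepatocyte markers, from *Alb* to *Tdo2* with all 12 detected in every mouse, had no detected difference between the groups (exact permutation test, p = 0.678), a sum in which *Alb* weighs most. Of the 12, 0 were past 5% FDR in edgeR and 7 had negative log2 fold changes. *Cyp2e1* (-0.94, adjusted p = 0.0777 by edgeR and 0.00962 by DESeq2) and *Hnf4a* (-0.34, adjusted p = 0.0805 by edgeR and 0.00591 by DESeq2) were past it in DESeq2. Libraries that stood apart were WT 3, whose summed liver tumor markers were 6285 against at most 1088 in the other WT mice, and *Nod2*-/- 7, whose summed neutrophil markers were 17641 against at most 1584 in the other mice of its genotype. In whole liver, fewer cells of a type and less RNA per cell cannot be told apart.

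Across the 10 genes the transcripts of 4 transporters were abundant and those of 6 were rare, in both genotypes. Per kilobase of exon, *Slc38a4* came first with 4375 ± 536 normalized counts in WT mice (SD, n = 6) and 3954 ± 527 in *Nod2*-/- mice (SD, n = 7). It made up 67.7% to 78.7% of the summed level of all 10 genes in single mice. *Slc7a2* followed with 932 ± 98.5 and 875 ± 137, *Slc38a2* with 309 ± 60.0 and 243 ± 37.8, and *Slc3a2* with 155 ± 14.1 and 150 ± 19.9, all per kilobase. Together these 4 held 96.2% to 99.6% of the summed level. In WT mice the ranges of these 4 neighbours did not overlap, and the lowest value of *Slc3a2* was above the highest of the next gene, *Slc7a7*. In *Nod2*-/- mice the ranges of *Slc38a2* and *Slc3a2* overlapped.

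The order of the rarer transporters was less certain. In WT mice it ran, per kilobase, from *Slc7a7* (20.6 ± 14.1) through *Slc1a4* (14.0 ± 10.4), *Slc7a5* (6.85 ± 3.01), *Slc1a5* (4.21 ± 1.32) and *Slc7a1* (1.12 ± 0.71) to *Slc7a11* (0.19 ± 0.15), and each range overlapped that of its neighbour. In *Nod2*-/- mice *Slc1a4* (41.0 ± 19.9) stood above *Slc7a7* (37.9 ± 21.3) in mean, though in only 2 of 7 mice. *Slc7a5* (14.3 ± 8.20), *Slc1a5* (9.06 ± 5.38), *Slc7a1* (1.99 ± 1.03) and *Slc7a11* (0.27 ± 0.20) followed in the same order, and of these neighbours only *Slc1a5* and *Slc7a1* did not overlap.

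**Figure D1:**
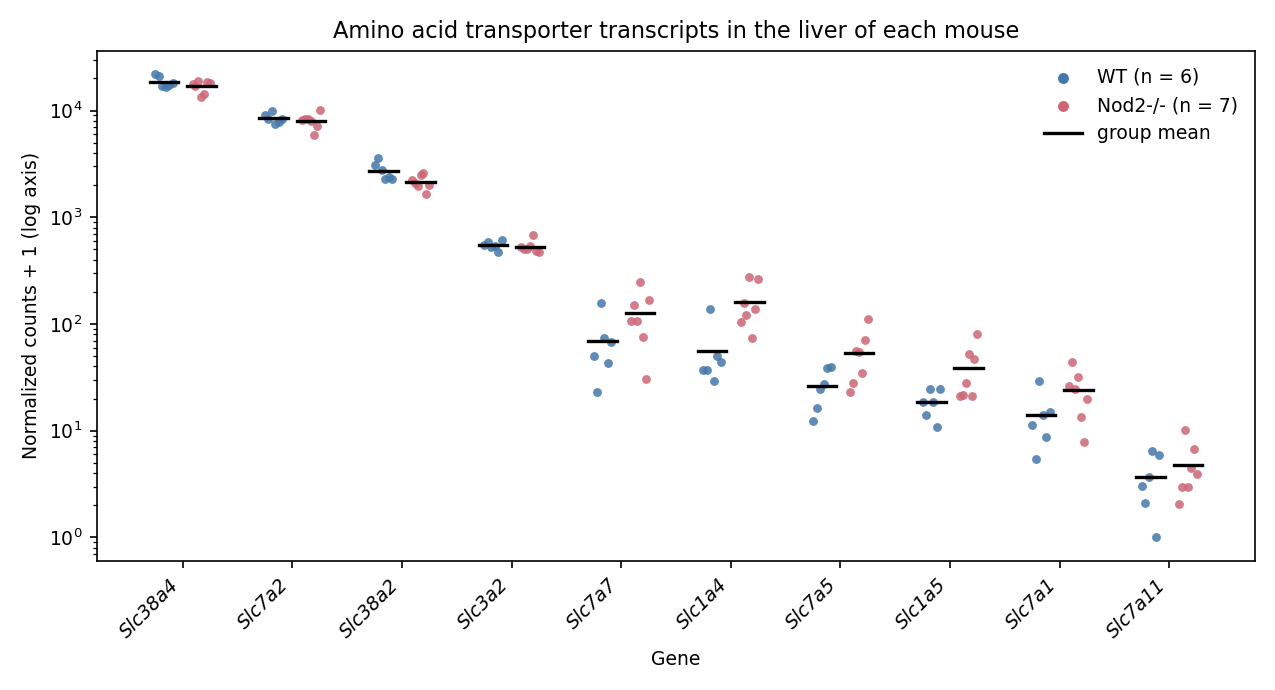
Normalized counts plus 1 of the 10 transporters in each mouse (log axis, not divided by gene length), ordered by their WT mean, with WT mice in blue, Nod2-/- mice in red and the group means as bars. The 4 abundant genes on the left have means that are lower in Nod2-/- mice, by a change of -21.5% in Slc38a2 and of -9.63% to -3.23% in the others, whereas Slc1a4, Slc7a5 and Slc1a5 have means above 2-fold higher in Nod2-/- mice with overlapping points.

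Between the genotypes no transporter was past 5% FDR in edgeR's quasi-likelihood test (0 of 9 tested), where 1.16% of all 13545 tested genes were. At an unadjusted p under 0.05 there were 4 of the 9. *Slc1a4*, *Slc1a5* and *Slc7a5* were higher in *Nod2*-/- mice, a direction in which 12.9% of all tested genes had such a p, and *Slc38a2* was lower, which held for 10.2%. None of the 10 transporters had values without overlap between the groups, compared with 1.44% of tested genes. The median log2 fold change of the 9 was 0.80, against 0.02 over all genes tested, and 5 of the 9 were positive. DESeq2's Wald test placed 1 of the 9 past 5% FDR, *Slc1a4*, where it placed 7.26% of its 15892 genes.

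**Figure D2:**
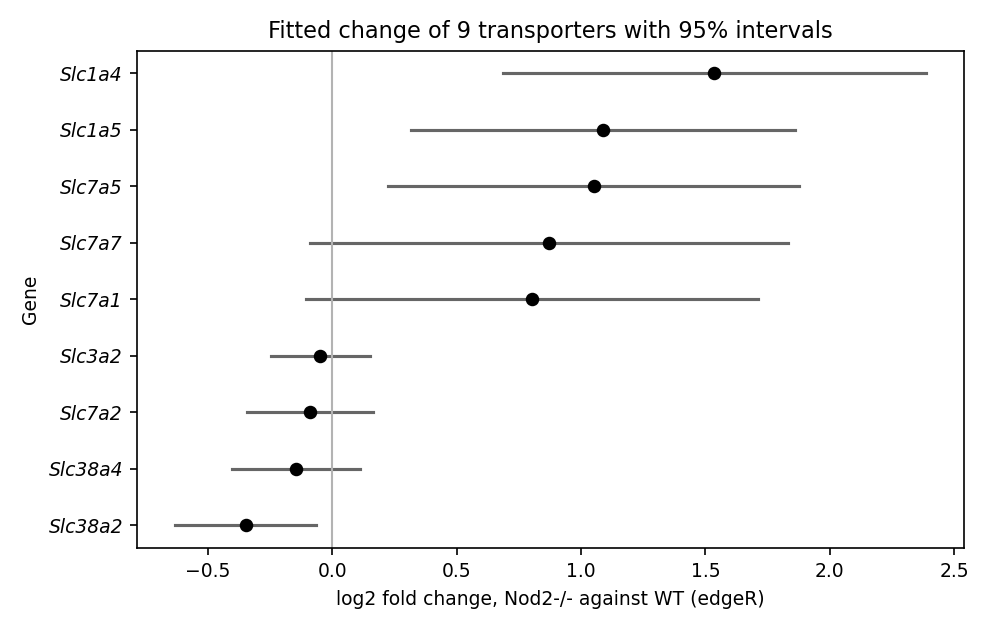
Log2 fold change of the 9 tested transporters, Nod2-/- against WT, from edgeR (points) with 95% intervals (lines). The intervals of Slc1a4, Slc1a5 and Slc7a5 lie above 0 and that of Slc38a2 lies below 0, before any adjustment for the number of genes tested.

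*Slc1a4* (ENSMUSG00000020142.12, chr11:20302180-20332713 of GRCm38, minus strand) codes for ASCT1, a sodium-dependent exchanger of alanine, serine, cysteine and threonine. Its normalized counts were 28.5 at the lowest, 39.8 at the median and 137 at the highest in WT mice, and 73.0, 137 and 276 in *Nod2*-/- mice. Of the WT mice only WT 3 was above the lowest *Nod2*-/- mouse, and 3 *Nod2*-/- mice were above WT 3, so the groups overlapped through 1 mouse. The means were 55.0 ± 40.9 (SD, n = 6) and 161 ± 78.3 (SD, n = 7), a ratio of 2.92, or 4.18 without WT 3. The log2 fold change was 1.54 (SE 0.40, 95% interval 0.69 to 2.39, adjusted p = 0.0656 by edgeR, two-sided exact permutation test p = 0.00932). Thus, *Slc1a4* missed the threshold in edgeR. It was past it in DESeq2 (log2 fold change 1.53, adjusted p = 0.00424). It was also past it in limma's voomWithQualityWeights (1.70, adjusted p = 0.0162), as were 6.22% of all genes, and with 1 surrogate variable in edgeR (1.61, adjusted p = 0.0273), as were 6.14%. Without WT 3 its log2 fold change was 2.05 (adjusted p = 0.00777 by edgeR), again past the threshold, as were 8.49% of all genes. With each of the other 12 mice left out in turn it was not.

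*Slc1a5* (ENSMUSG00000001918.17, chr7:16781340-16798274, plus strand) codes for ASCT2, a related exchanger that carries glutamine and is well known from proliferating cells. It belongs to a gene list that the study compiled on these samples, which is not independent evidence of its direction. Its lowest, median and highest normalized counts were 9.94, 17.5 and 23.7 in WT mice and 20.1, 26.7 and 79.4 in *Nod2*-/- mice. All 7 *Nod2*-/- mice were above the WT median, 4 were above every WT mouse, and the 3 others lay between 20.1 and 20.8, below WT 3 and WT 6. The means were 17.6 ± 5.49 (SD, n = 6) and 37.8 ± 22.4 (SD, n = 7), a ratio of 2.15, or 1.76 without *Nod2*-/- 7. The log2 fold change of 1.09 (SE 0.36, 95% interval 0.32 to 1.86) had an adjusted p of 0.106 by edgeR and 0.0511 by DESeq2, and the two-sided exact permutation test gave p = 0.0455.

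The light chain *Slc7a5* (ENSMUSG00000040010.10, chr8:121881150-121907694, minus strand) codes for LAT1, which with CD98 carries large neutral amino acids such as leucine. Its normalized counts were 11.3, 24.9 and 38.5 at the lowest, median and highest in WT mice and 22.2, 53.9 and 110 in *Nod2*-/- mice. Here, 4 *Nod2*-/- mice were above every WT mouse and the other 3 lay within the WT range. The means were 25.4 ± 11.2 (SD, n = 6) and 53.0 ± 30.4 (SD, n = 7), a ratio of 2.09, or 1.71 without *Nod2*-/- 7. The log2 fold change was 1.05 (SE 0.39, 95% interval 0.22 to 1.88), with an adjusted p of 0.132 by edgeR and 0.0714 by DESeq2, and p = 0.0466 in the two-sided exact permutation test.

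*Slc7a7* (ENSMUSG00000000958.10, chr14:54369442-54417780, minus strand) codes for y+LAT1, the light chain that exports cationic in exchange for neutral amino acids and is known from epithelia and macrophages. Its normalized counts were 21.9, 58.2 and 156 at the lowest, median and highest in WT mice and 29.6, 106 and 247 in *Nod2*-/- mice. WT 3 was again the highest WT mouse, 2 *Nod2*-/- mice were above it, and the lowest 2 mice of all were WT 2 and *Nod2*-/- 6. The means of 68.3 ± 46.9 (SD, n = 6) and 126 ± 70.6 (SD, n = 7) had a ratio of 1.84, and without WT 3 of 2.48. The log2 fold change was 0.87 (SE 0.45, 95% interval -0.09 to 1.83, adjusted p = 0.259 by edgeR) and 1.29 without WT 3 (adjusted p = 0.0728 by edgeR). The gene shares 232 exon bases with *Oxa1l* on the opposite strand, and *Oxa1l* had 696 ± 102 and 659 ± 77.5 normalized counts in the groups (log2 fold change -0.08, adjusted p = 0.674 by edgeR). Whether strand was used in counting is not given in the sources used here. *Slc7a7* lies on chromosome 14 between 50 and 85 Mb, where 22 of 225 tested genes (9.78%) were past the FDR threshold. Of the other tested genes, 135 of 13320 (1.01%) were past it. *Slc7a7* itself was not, and the part of its position in its values was not tested.

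*Slc7a11* (ENSMUSG00000027737.10, chr3:49892526-50443614, minus strand), the light chain xCT that imports cystine for glutathione synthesis, was close to the limit of detection. It had 0 to 6 counts per library of the WT group and 1 to 9 per library of the *Nod2*-/- group, or 2.71 ± 2.14 (SD, n = 6) and 3.78 ± 2.83 (SD, n = 7) normalized counts. A difference was not detectable at this depth (two-sided exact permutation test, p = 0.483). The gene overlaps 5 others without sharing exon bases.

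The heavy chain *Slc3a2* (ENSMUSG00000010095.13, chr19:8706882-8723369, minus strand) was far more abundant than the light chains described here, *Slc7a5*, *Slc7a7* and *Slc7a11*, and close to level between the groups. The lowest, median and highest normalized counts were 467, 547 and 606 in WT mice and 467, 509 and 679 in *Nod2*-/- mice. Apart from *Nod2*-/- 5, at 679, the *Nod2*-/- mice lay between 467 and 537, inside the WT range. The log2 fold change was -0.05 (SE 0.09, 95% interval -0.25 to 0.15, adjusted p = 0.795 by edgeR). The summed per-kilobase level of *Slc7a5*, *Slc7a7* and *Slc7a11* was 18.1 ± 10.1% of that of *Slc3a2* in WT mice and 36.0 ± 17.7% in *Nod2*-/- mice (SD, two-sided exact permutation test, n = 6 and 7, p = 0.0536). This percentage counts no light chains but these and was chosen after the values were seen. It ran from 6.48% to 36.3% in single WT mice and from 16.5% to 60.9% in single *Nod2*-/- mice.

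The cationic transporters *Slc7a1* (CAT1, which most cells use for arginine and lysine) and *Slc7a2* (CAT2, whose low-affinity form is typical of hepatocytes) differed in abundance more than between genotypes. *Slc7a1* (ENSMUSG00000041313.14, chr5:148327410-148399904, minus strand) had 4.39, 11.7 and 28.0 normalized counts at the lowest, median and highest in WT mice and 6.83, 23.6 and 42.6 in *Nod2*-/- mice. The highest WT mouse was again WT 3, below 2 *Nod2*-/- mice. The fold change was 0.80 on the log2 scale (SE 0.42, 95% interval -0.10 to 1.71, adjusted p = 0.268 by edgeR), not past the threshold. *Slc7a2* (ENSMUSG00000031596.15, chr8:40862396-40922308, plus strand) had 8518 ± 900 (SD, n = 6) and 7997 ± 1249 (SD, n = 7) normalized counts, from 7511 to 9986 in WT mice and from 5944 to 10027 in *Nod2*-/- mice. Its log2 fold change was -0.09 (SE 0.12, 95% interval -0.34 to 0.16, adjusted p = 0.672 by edgeR). It shares 635 exon bases with *Gm26584* on the opposite strand. *Slc7a2* and *Slc7a5* are on chromosome 8, as *Nod2* is, at distances of 47.8 and 33.2 Mb from it.

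The sodium-coupled transporters of the system A type take up small neutral amino acids such as alanine and glutamine, and *Slc38a2* (SNAT2) is the form that most cells raise when amino acids run short. *Slc38a2* (ENSMUSG00000022462.6, chr15:96687392-96699730, minus strand) was the one transporter with an unadjusted p under 0.05 and a lower level in *Nod2*-/- mice. Its lowest, median and highest normalized counts were 2297, 2551 and 3597 in WT mice and 1639, 2084 and 2612 in *Nod2*-/- mice. Of the *Nod2*-/- mice 5 were below every WT mouse, and *Nod2*-/- 4 and 5 lay within the WT range. The means of 2734 ± 530 (SD, n = 6) and 2147 ± 334 (SD, n = 7) gave a change of -21.5%, with a log2 fold change of -0.35 (SE 0.13, 95% interval -0.63 to -0.07, adjusted p = 0.143 by edgeR, two-sided exact permutation test p = 0.0286). *Slc38a4* (ENSMUSG00000022464.13, chr15:96994820-97055956, minus strand) codes for SNAT4, the hepatocyte form, and had 18643 ± 2285 (SD, n = 6) and 16847 ± 2244 (SD, n = 7) normalized counts. The *Nod2*-/- mice ran from 13273 to 18928 and the WT mice from 16553 to 22026, and the log2 fold change was -0.15 (SE 0.12, 95% interval -0.40 to 0.11, adjusted p = 0.482 by edgeR).

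The rarer transporters were high in partly the same mice. For *Slc7a5* and *Slc1a5* the same 4 mice, *Nod2*-/- 3, 4, 6 and 7, held the 4 highest values. For *Slc1a4* and *Slc7a7* they were *Nod2*-/- 2, 4 and 7 and WT 3, and for *Slc7a1* they were *Nod2*-/- 1, 2 and 4 and WT 3. The 4 mice highest for *Slc7a1* were also the 4 with the highest sum of 6 liver tumor markers (*Afp*, *Gpc3*, *H19*, *Igf2*, *Golm1* and *Ly6d*). This match was picked after the values were seen and was not tested. The liver tumor sum ran from 111 to 6285 in WT mice and from 408 to 7811 in *Nod2*-/- mice. *H19* weighs most in it, with a mean of 441 in WT mice and 2429 in *Nod2*-/- mice. Of the 6 markers 5 were tested, all 5 of them with positive log2 fold changes, and 0 were past 5% FDR. *Igf2*, which was not tested, was at 0 in every WT mouse and at most at 0.997 normalized counts in *Nod2*-/- mice. Summed biliary and progenitor markers (*Krt19*, *Krt7*, *Epcam*, *Sox9*, *Spp1* and *Cd24a*) ran from 636 to 3608 and from 1867 to 6756 (two-sided exact permutation test, p = 0.0152), with WT 3 and *Nod2*-/- 4 highest in their groups. Of these 6, *Sox9* was past 5% FDR. *Spp1* weighs most in this sum, with a mean of 1452 in WT mice and 3586 in *Nod2*-/- mice. On the log2 scale *Spp1* was higher in *Nod2*-/- mice by 1.30, *Sox9* by 1.29 and *Cd24a* by 1.21. *Epcam* was at 0.24, *Krt7* at -0.05 and *Krt19* at -0.40, with an unadjusted p from 0.355 to 0.881 in edgeR. Summed macrophage markers ran from 3448 to 6340 and from 4115 to 12718 over 12 genes, and neutrophil markers from 71.3 to 192 and from 120 to 17641 over 12 genes, 7 of which were at 0 in some mice. Both were highest in *Nod2*-/- 7, the mouse with the most *Slc7a5* and *Slc1a5*. Summed lung epithelium markers were lower in *Nod2*-/- mice, from 56.1 to 536 against 229 to 3268 in WT livers (exact permutation test, two-sided, p = 0.0163). WT 4 and WT 2 were highest. Of these 8 genes 5 were tested, 0 with positive log2 fold changes and 0 past 5% FDR in edgeR. *Sftpc* weighs most, with means of 643 in WT mice and 74.3 in *Nod2*-/- mice (-3.09, adjusted p = 0.0712 by edgeR and 0.0168 by DESeq2). *Foxj1*, not tested in edgeR, went the other way, with means of 3.75 and 6.76. The permutation p was 0.130 for the liver tumor sum, 0.261 for macrophages, 0.209 for neutrophils and 0.123 for T and B cells. It was 0.198 for endothelial cells, 0.998 for stellate cells and fibroblasts and 0.0478 for the erythroid sum, which was higher in *Nod2*-/- mice. Of 6 erythroid genes 5 were tested, 4 with positive log2 fold changes and 0 past 5% FDR. The fifth, *Alas2*, was lower (-0.39, adjusted p = 0.468 by edgeR). The neutrophil test compares means, in which *Nod2*-/- 7 weighs most, and the medians were 114 in WT and 513 in *Nod2*-/- mice. Of the 12 neutrophil genes 5 were tested, all 5 with positive log2 fold changes and 0 past 5% FDR. The part of these cell types in the transporter values was not tested.

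**Figure D3:**
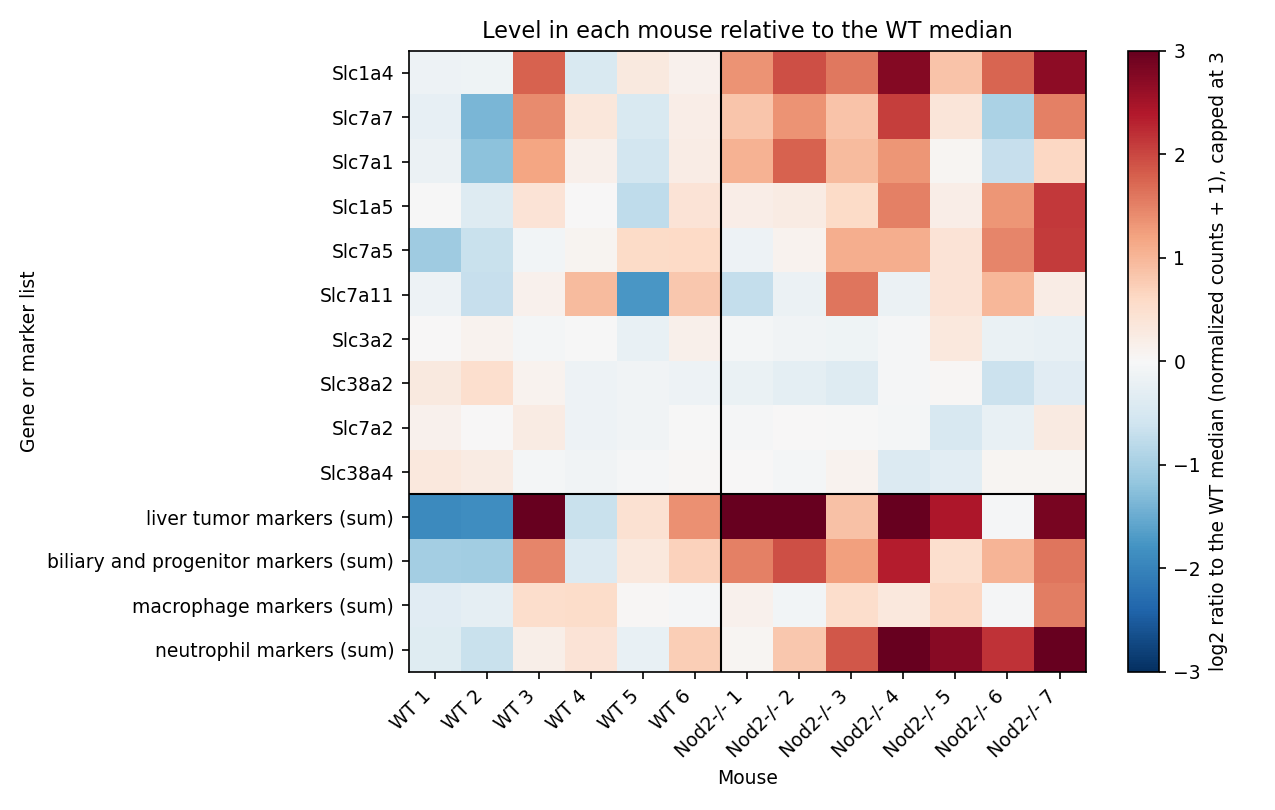
Level of each transporter and of 4 summed marker lists in each mouse (columns) as the log2 ratio to the WT median, from normalized counts plus 1 and capped at 3 in either direction (red higher, blue lower). WT 3 is red for Slc1a4, Slc7a7, Slc7a1 and the liver tumor markers as Nod2-/- 2 and 4 are, and Slc7a5 and Slc1a5 are deepest in Nod2-/- 7.

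Pairs of transporters that share a dimer, a family or an exchange cycle were compared over the 13 mice after subtracting each genotype's mean from the log2 values. None of the 7 pairs passed adjustment over the pairs. *Slc7a5* and *Slc1a5*, which are thought to work in series because the glutamine taken up by ASCT2 leaves through LAT1, had Pearson's r = 0.64 and Spearman's rho = 0.52 (permutation within genotype, p = 0.0313 and 0.0910, adjusted p = 0.109 and 0.229). Without the 2 mice farthest from the median of *Slc7a5* r was 0.56. Within genotypes r was 0.01 in WT mice and 0.91 in *Nod2*-/- mice (exact permutation test, p = 0.982 and 0.00655, adjusted over 14 such tests 0.982 and 0.0917). *Slc1a4* and *Slc1a5* had r = 0.63 and rho = 0.51 (permutation p = 0.0250 and 0.0982, adjusted p = 0.109 and 0.229), and r = 0.70 without the 2 mice farthest from the median of *Slc1a4*. *Slc38a2* and *Slc38a4*, both on chromosome 15, had r = -0.09 and rho = -0.04 in all (permutation p = 0.775 and 0.895), which joined an r of 0.81 in WT mice with one of -0.84 in *Nod2*-/- mice (exact permutation test, p = 0.0653 and 0.0135, adjusted over 14 tests 0.228 and 0.0944). Without the 2 mice farthest from the median of *Slc38a2* the r over both genotypes was -0.22. The difference between the genotypes in r was not tested. *Slc3a2* had r = -0.43 with *Slc7a5*, -0.10 with *Slc7a7* and 0.19 with *Slc7a11* (permutation p = 0.175, 0.751 and 0.535). Without *Nod2*-/- 5 and WT 6, the mice farthest from the median of *Slc3a2*, these were -0.71 (adjusted p = 0.0803, permutation), 0.01 and 0.10. For the cationic pair, *Slc7a1* and *Slc7a2*, r was 0.50 (permutation p = 0.0984, adjusted p = 0.230), and 0.56 without the 2 farthest mice.

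**Figure D4:**
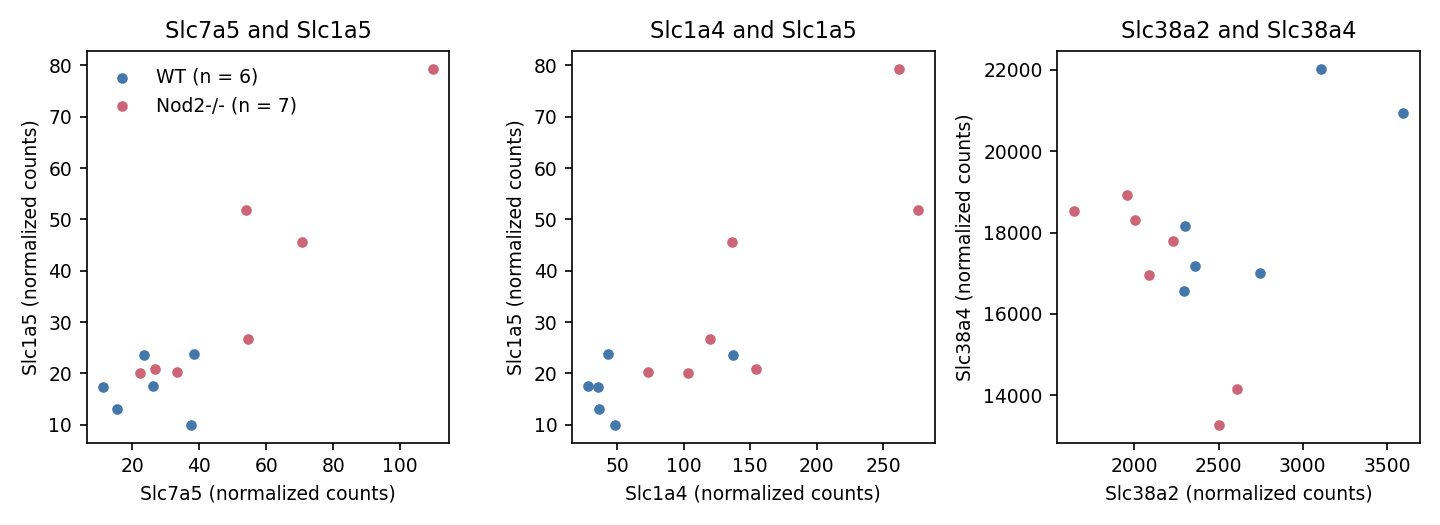
Normalized counts of 3 pairs of transporters, 1 point per mouse, WT in blue and Nod2-/- in red. For Slc7a5 and Slc1a5 r was 0.91 among Nod2-/- mice and 0.01 among WT mice, and for Slc38a2 and Slc38a4 it was -0.84 and 0.81, on log2 values and with no pair past adjustment. The axes start above 0.

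Other genes of amino acid transport and use were read from lists of known members, beside the shares of all tested genes given above: 1.16% past 5% FDR in edgeR, 12.9% higher and 10.2% lower at an unadjusted p under 0.05, and 7.26% past 5% FDR in DESeq2. Values without overlap between the groups were found in 1.44% of tested genes. Of 39 other amino acid transporters of the plasma membrane and lysosome, 19 were tested, 0 were past 5% FDR by edgeR, 4 had an unadjusted p under 0.05 and a higher level in *Nod2*-/- mice and 2 a lower one, and the median log2 fold change was -0.09. The lower genes were thus close to the background of 10.2%. DESeq2 placed 2 of 20 past 5% FDR, both higher, against its background of 7.26%. *Slc7a4*, a relative of the cationic transporters, had 34.6 ± 6.34 normalized counts in WT mice (SD, n = 6) and 57.3 ± 12.0 in *Nod2*-/- mice (SD, n = 7), with all 7 *Nod2*-/- mice above every WT mouse (log2 fold change 0.72, adjusted p = 0.0601 by edgeR and 0.0113 by DESeq2). *Slc3a1*, the heavy chain rBAT that serves cystine transport and is the counterpart of *Slc3a2*, had 1225 ± 347 and 2039 ± 497, with 6 of 7 above every WT mouse (0.73, adjusted p = 0.0660 by edgeR and 0.0118 by DESeq2). *Slc16a10*, the aromatic amino acid transporter TAT1, had 1831 ± 235 and 1439 ± 226 (-0.35, adjusted p = 0.112 by edgeR).

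Of 24 amino acid response genes, 22 were tested and 3 rose in *Nod2*-/- mice past 5% FDR, against 1.16% of all genes. At an unadjusted p under 0.05, 8 were higher and 2 lower, against 12.9% and 10.2%, so that the lower ones were close to the background. The median log2 fold change of the list was 0.44 against 0.02 over all genes tested, and DESeq2 placed 5 higher and 2 lower of 23 past the threshold, against 7.26% of all genes. *Atf5*, a transcription factor of this response, had 4054 ± 660 normalized counts in WT mice (SD, n = 6) and 8276 ± 1551 in *Nod2*-/- mice (SD, n = 7), without overlap (log2 fold change 1.03, adjusted p = 0.00244 by edgeR). *Fgf21*, a hormone secreted by the liver, had 87.1 ± 23.9 and 283 ± 153 (1.70, adjusted p = 0.0261 by edgeR), with 6 of 7 *Nod2*-/- mice above every WT mouse. *Mthfd2*, a mitochondrial enzyme of folate metabolism, had 31.8 ± 8.65 and 72.4 ± 22.2, without overlap (1.18, adjusted p = 0.0345 by edgeR). *Fgf21* and *Mthfd2* missed the threshold in edgeR without WT 1 (adjusted p = 0.0678 and 0.0843), WT 2 (0.0727 and 0.0948) or WT 4 (0.0728 and 0.0822). *Mthfd2* also missed it without WT 5, *Nod2*-/- 4, *Nod2*-/- 6 or *Nod2*-/- 7 (adjusted p from 0.0503 to 0.0645 by edgeR), and *Atf5* was past it without any 1 of the 13 mice. The factor *Atf4* itself had 1301 ± 183 and 1789 ± 378 (0.46, adjusted p = 0.0889 by edgeR). *Asns*, asparagine synthetase, named after its values were seen, had 13.4 ± 14.0 and 203 ± 338 (3.87, adjusted p = 0.0576 by edgeR and 0.00117 by DESeq2). Of the 7 *Nod2*-/- mice 6 were above every WT mouse. The paper names *Asns* and *Mthfd2* as elevated from these same samples, which is not independent evidence of their direction. The 2 genes of the list that were lower at an unadjusted p under 0.05, likewise named after their values were seen, were *Chac1*, which degrades glutathione, with 273 ± 98.6 and 142 ± 49.8 (-0.94, adjusted p = 0.0673 by edgeR and 0.0104 by DESeq2), and *Shmt2*, a mitochondrial enzyme of serine metabolism, with 3459 ± 343 and 2689 ± 362 (-0.36, adjusted p = 0.0769 by edgeR and 0.0127 by DESeq2).

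The 10 glutathione and NRF2 target genes were all tested and 0 were past 5% FDR, 2 being higher at an unadjusted p under 0.05, with a median log2 fold change of 0.05. The lowest p-values were those of *Gss*, glutathione synthetase (log2 fold change 0.40, adjusted p = 0.0876 by edgeR), *Nfe2l2*, which codes for NRF2 (0.32, adjusted p = 0.158), and *Gsr*, glutathione reductase (-0.18, adjusted p = 0.221). Of 19 enzymes of arginine and glutamine metabolism 18 were tested and 0 were past 5% FDR. At an unadjusted p under 0.05, 3 were higher and 4 lower, against 12.9% and 10.2% of all genes, with a median log2 fold change of 0.00. *Odc1*, ornithine decarboxylase, had 984 ± 132 normalized counts in WT mice (SD, n = 6) and 783 ± 48.5 in *Nod2*-/- mice (SD, n = 7) (log2 fold change -0.33, adjusted p = 0.0673 by edgeR). *Otc*, an enzyme of the urea cycle, had 10156 ± 1846 and 7033 ± 1522 (-0.53, adjusted p = 0.0870 by edgeR). DESeq2 placed 1 gene of this list higher and 3 lower past 5% FDR, of 18, against 7.26% of all genes.

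**Figure D5:**
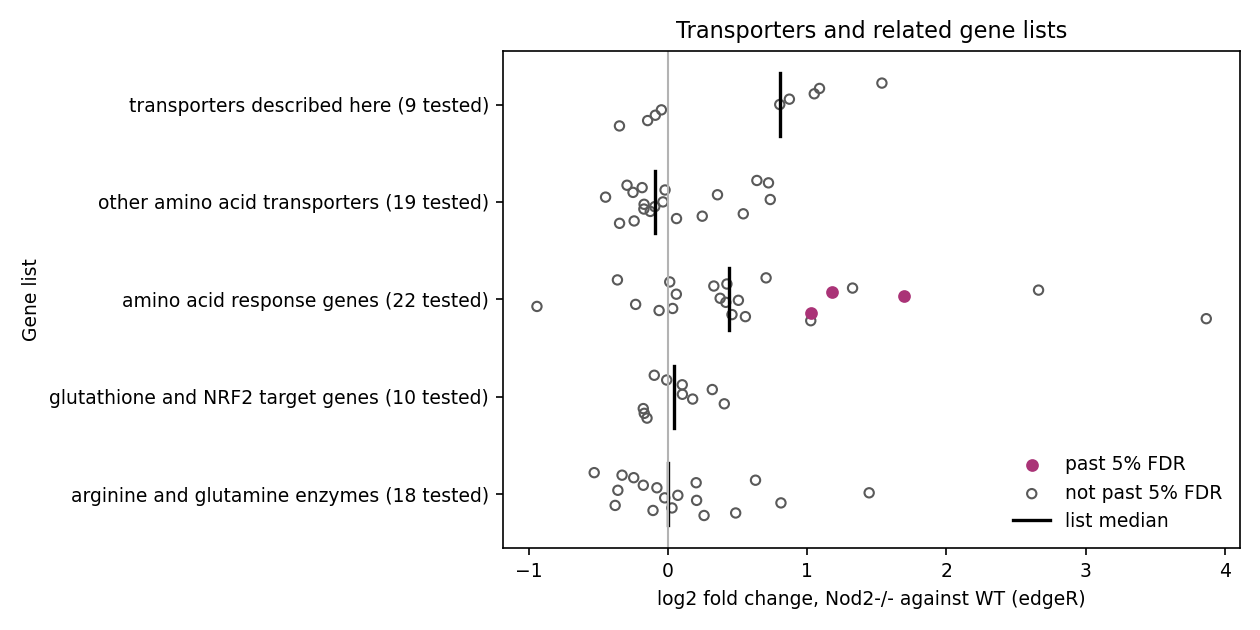
Log2 fold change, Nod2-/- against WT (edgeR), of the 9 tested transporters and of the tested genes of 4 related lists, 1 point per gene, filled where past 5% FDR, with the list medians as bars. The 3 filled points are Atf5, Mthfd2 and Fgf21 among the amino acid response genes, and the medians are 0.80, -0.09, 0.44, 0.05 and 0.00 from top to bottom.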

How the data were processed

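Polyadenylated liver RNA of 6 WT and 7 *Nod2*-/- mice was sequenced, 1 library per mouse, and samples were grouped by their labels. Per the submitters' processing notes, the tools were Trimmomatic 0.33 and TopHat2 2.1.1 and the build was GRCm38. The deposited values are the authors' counts of reads on GENCODE genes, unnormalized. How reads were counted, and whether strand was used, is not given in the sources used here. All value columns were used. Libraries of 1 genotype all differed by more than sampling noise (chi-square over degrees of freedom from 11.3 to 179 in 36 pairs).

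Genes were matched by identifier to GENCODE release M21 of the same build for symbols, positions and exon lengths. The 13545 genes that passed filterByExpr, with 99.9% of counts, were tested in edgeR 4.0.16 (R 4.3.3) by glmQLFit and glmQLFTest after TMM normalization, two-sided and without covariates. P-values were adjusted over all of them by Benjamini-Hochberg, with 0.05 as the threshold. A normalized count is the count after scaling each library to the mean effective size, and levels per kilobase divide it by the length of the joined exons. Exact permutation tests ran over 1716 splits, so that no p under 0.000583 was possible. Pairs of genes used log2(normalized count + 1) and 100000 resamples within genotype.

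Alternatives were DESeq2 1.42.0 (the study's tool), voomWithQualityWeights of limma 3.58.1, RLE normalization, testing without a filter, keeping genes with 10 or more counts in each mouse, a replicate block, edgeR's robust option, 1 surrogate variable (sva 3.50.0), removal of the 20 most abundant genes, and each mouse left out. Leaving out WT 3 and *Nod2*-/- 7 together was added after seeing the data. The fits were tested on simulated data. Named are the 10 transporters, *Nod2*, the genes of each related list past 5% FDR or, with none past it, the 3 of lowest p, and summed markers. *Oxa1l*, *Gm26584* and *Atf4* were named for an overlap or a role, and *Asns*, *Chac1*, *Shmt2*, *Cyp2e1*, *Hnf4a*, *Alas2*, *Sftpc* and *Foxj1* after their values were seen. A result for 1 named gene is not reported here. The transporters and all lists were chosen with earlier results of these data known.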

Additional observations from a re-analysis of the deposited data

Results flagged for a closer look

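Values that stood apart within a genotype were sought with Dixon's test in 40 groups of 6 or 7 mice (the 10 transporters and 10 summed marker lists in each genotype), of which chance alone would single out about 1 in 20. It found 7. Among the transporters, *Slc3a2* was highest in *Nod2*-/- 5, at 679 normalized counts against at most 537 in the other *Nod2*-/- mice. *Slc1a4* was highest in WT 3, at 137 against at most 48.6 in the other WT mice.

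WT 3 also stood apart in 2 of the marker sums. Its summed liver tumor markers were 6285, with 1088 the next value, and its summed stellate cell and fibroblast markers were 7036, with 4489 the next. *Nod2*-/- 7 stood apart in summed neutrophil markers, at 17641 with 1584 the next value, and in summed macrophage markers, at 12718 with 6711 the next. *Nod2*-/- 4 had summed hepatocyte markers of 3056630, with 2100540 the next value.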

How the results depend on the processing

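None of the 9 tested transporters changed the sign of its log2 fold change in the fits in which it was tested. *Slc7a11* was not among them, and *Slc7a1* and *Slc1a5* gave no value with at least 10 counts in every mouse. The number of transporters past 5% FDR was 0 in edgeR and 1, *Slc1a4*, with DESeq2, with voomWithQualityWeights, with 1 surrogate variable and without both WT 3 and *Nod2*-/- 7, and from 0 to 1 over the 13 fits that each left out 1 mouse, where it was 1 without WT 3. The log2 fold change of *Slc1a4* ran from 1.35 to 2.05 over those 13 fits and its adjusted p from 0.00777 to 0.156. The number of transporters at an unadjusted p under 0.05 was 4 and ran from 3 to 6 over those fits. Genes past 5% FDR in all numbered 157 in edgeR, 1154 with DESeq2, 843 with voomWithQualityWeights, 831 with 1 surrogate variable and 567 without both mice. Leaving out 1 mouse gave from 41 (without WT 1) to 1156 (without WT 3), with 45 without WT 2, 42 without WT 4, 52 without WT 5, 67 without *Nod2*-/- 4, 81 without *Nod2*-/- 6 and 54 without *Nod2*-/- 7. In the 4 related lists 3 genes were past 5% FDR, against 13 with DESeq2, 10 with voomWithQualityWeights, 13 with 1 surrogate variable and 7 without both mice. Leaving out 1 mouse gave from 1 (without WT 1, WT 2 or WT 4) to 14 (without WT 3), with 5 without *Nod2*-/- 1 or *Nod2*-/- 5. The cause of these shifts was not tested. For *Slc3a2* and *Slc7a7* r turned from -0.10 to 0.014 without *Nod2*-/- 5 and WT 6, the 2 mice farthest from the median of *Slc3a2*.

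Both genotypes carry replicate numbers, but nothing in the labels ties equal numbers, and the deviations of same-numbered mice from their group means correlated between -0.30 and 0.29. With the replicate number as a block 35 genes in all, 1 gene of the related lists and 0 transporters were past 5% FDR, and 4 transporters had an unadjusted p under 0.05.

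Depth limited *Slc7a11* and *Nod2*, which had under 10 counts in every library.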
